A study of Mus musculus with 6 samples.

Results

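The genes examined here are 10 genes of efferocytosis, the uptake of apoptotic cells by phagocytes. They comprise the receptor tyrosine kinases Mertk, Axl and Tyro3, the bridging molecules Gas6, Pros1 and Mfge8, the receptors Stab1 and Lrp1, and the engulfment genes Elmo1 and Dock1. They were chosen by gene symbol from a list of genes for apoptotic cell uptake, and all 10 were found once each among 46603 genes. All 10 also passed the filter on low counts, which left 15440 genes. RNA-Seq was performed on cells bound by beads against CD11B, an integrin chain of myeloid cells, from whole kidneys of male mice aged 10 to 12 weeks. Kidneys were taken on day 3 after bilateral ischemia-reperfusion injury (IRI-AKI), with 28 minutes of clamping. There were 3 libraries from PTEC DN RAR mice, whose genotype was PEPCK CRE+ with Rosa26-LSL-RARaT403X, and 3 from Cre- control mice, which were PEPCK CRE- with Rosa26-LSL-RARaT403X. Mice of both genotypes carry the Rosa26 allele for a truncated dominant negative retinoic acid receptor, which is switched on by Cre, and Cre is driven by PEPCK in proximal tubular epithelial cells (PTECs). No count used here measures the truncated receptor apart from the normal gene, so the genotype was not checked. All 6 libraries came from injured kidneys, and uninjured kidneys were not analysed here. The labels number the libraries but do not state that each came from a separate mouse, so p-values cover the spread between these libraries, which may in part be technical.

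Apoptotic cells expose phosphatidylserine, which phagocytes bind directly or through soluble bridging molecules. GAS6 and protein S, the product of Pros1, link phosphatidylserine to the TAM receptors TYRO3, AXL and MERTK, and MFG-E8 links it to alpha v integrins. Stabilin-1 binds phosphatidylserine itself, and LRP1 binds calreticulin and other ligands on dying cells. Inside the phagocyte, ELMO1 and DOCK1 form a complex that activates the GTPase RAC1 and drives the cytoskeleton around the cargo. After acute kidney injury, both macrophages and surviving tubular cells, the latter through Kim1, clear dying tubular cells, and the comparison asks how the myeloid side of this machinery differs when retinoic acid receptor signaling is blocked in PTECs.

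Each of the 10 genes had an entry among RefSeq promoter windows on GRCm38.p6, with Elmo1 having more than 1. The 250 bases upstream of the start are printed for Mertk, which was lower in PTEC DN RAR libraries, for Mfge8, which was higher, and for Lrp1, which was lower, so that windows of genes with opposite differences can be read side by side. They lie at chr2:128698665-128698914 on the plus strand, chr7:79149061-79149310 on the minus strand and chr10:127621149-127621398 on the minus strand. Each is written 5′ to 3′, with capitals marking GGGCGG (the GC box) or GAGGAA (the PU.1 core, a myeloid factor's motif) on either strand.
Mertk: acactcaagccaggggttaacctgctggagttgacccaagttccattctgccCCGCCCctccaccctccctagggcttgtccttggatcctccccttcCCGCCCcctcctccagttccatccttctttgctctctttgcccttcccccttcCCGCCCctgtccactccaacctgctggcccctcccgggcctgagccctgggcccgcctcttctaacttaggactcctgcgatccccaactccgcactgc
Mfge8: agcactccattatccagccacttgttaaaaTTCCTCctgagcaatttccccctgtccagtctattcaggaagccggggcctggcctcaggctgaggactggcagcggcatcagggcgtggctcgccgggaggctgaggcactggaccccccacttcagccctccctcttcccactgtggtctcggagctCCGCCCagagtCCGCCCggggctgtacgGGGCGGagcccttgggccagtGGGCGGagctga
Lrp1: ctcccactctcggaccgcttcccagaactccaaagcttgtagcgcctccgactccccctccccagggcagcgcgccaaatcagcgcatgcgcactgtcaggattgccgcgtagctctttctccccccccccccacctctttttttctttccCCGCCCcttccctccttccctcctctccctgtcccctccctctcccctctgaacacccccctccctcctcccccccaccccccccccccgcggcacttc
GGGCGG was found in 9 of the 11 windows, against 32.7% of all 32841 windows of this length, and GAGGAA in 4 of 11, against 23.3%. The windows were also rich in G and C, from 43.6% to 73.2%, with 10 of 11 above the median of 52.4% of all windows, and the part of this base composition in the GC box count was not tested. The Mertk window holds 3 GC boxes and no GAGGAA, the Mfge8 window 4 GC boxes and 1 GAGGAA, and the Lrp1 window 1 GC box. AGGTCA, the half-site bound by retinoic acid receptors and other nuclear receptors, was found in 0 of 11 windows, against 14.0% of all windows. TGANTCA (AP-1, 6.75% of all windows), CACGTG (the E-box, 6.02%) and the interferon response element (2.98%) were likewise found in 0 of 11. These are matches of letters, searched on both strands, and say nothing of what binds there.

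Total gene counts ranged from 29318041 to 40741507 in Cre- control libraries and from 42113139 to 46517005 in PTEC DN RAR libraries, and levels are given as TMM-scaled CPM, the counts of a gene relative to the scaled library total. Mitochondrial genes took 5.03% to 8.77% of counts in Cre- controls and 10.4% to 12.1% in PTEC DN RAR libraries. Itgam, which encodes CD11B, was abundant throughout, at 1737, 1959 and 1995 CPM in Cre- controls and 1366, 1303 and 980.3 CPM in PTEC DN RAR libraries, so that the log2 fold change was -0.64 (adjusted p = 0.00818 by edgeR). The sort gene itself was therefore lower in PTEC DN RAR libraries. Markers of kidney cells were higher in them. The difference in mean log2 CPM was 1.68 for proximal tubule, with 12 of 12 genes called higher and sums from 672 to 938 CPM against 2167 to 3466 CPM. It was 1.81 for distal nephron, with 9 of 12 called higher and sums of 1277 to 1863 CPM against 4409 to 8465 CPM. For endothelium it was 1.43 (8 of 8 called higher, sums of 64.6 to 104 CPM against 207 to 259 CPM), for podocytes 1.29 (4 of 5, 51.1 to 82.2 CPM against 146 to 178 CPM) and for stroma 0.84 (6 of 8, 100.3 to 120.0 CPM against 160.0 to 239 CPM). None of these markers was at 0 in all libraries, and their part in the differences of the efferocytosis genes was not tested. Among blood cells, monocyte markers differed by -0.97 (6 of 8 called lower, sums of 3140 to 3609 CPM against 1483 to 1588 CPM), neutrophil markers by -0.99 (6 of 10, 620.4 to 1098 CPM against 336 to 484 CPM) and platelet markers by -2.42 (2 of 3 tested, 278 to 412 CPM against 34.9 to 47.0 CPM). Dendritic cell markers differed by 0.58 (3 of 8 called higher and 1 lower, 99.3 to 144 CPM against 120.2 to 156 CPM). Macrophage markers differed by 0.21, with 2 of 10 called higher and 1 lower and sums of 30887 to 36057 CPM against 37272 to 51029 CPM, and lymphocyte markers by 0.55, with 0 of 7 tested called by edgeR (3 higher at an unadjusted p under 0.05, 2 called higher by DESeq2 and 0 by limma-voom). Single libraries moved both, the macrophage difference to 0.14 without PTEC DN RAR 2 and 0.33 without PTEC DN RAR 3, and the lymphocyte difference to 0.10 without PTEC DN RAR 1, 0.34 without Cre- control 3 and 1.12 without PTEC DN RAR 3. The exact permutation p (two-sided) was 0.1, the smallest that 3 libraries against 3 allow, for each list except macrophages (0.2) and lymphocytes (0.5). In such bulk samples fewer cells of a type and less RNA per cell cannot be told apart.

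**Figure D1:**
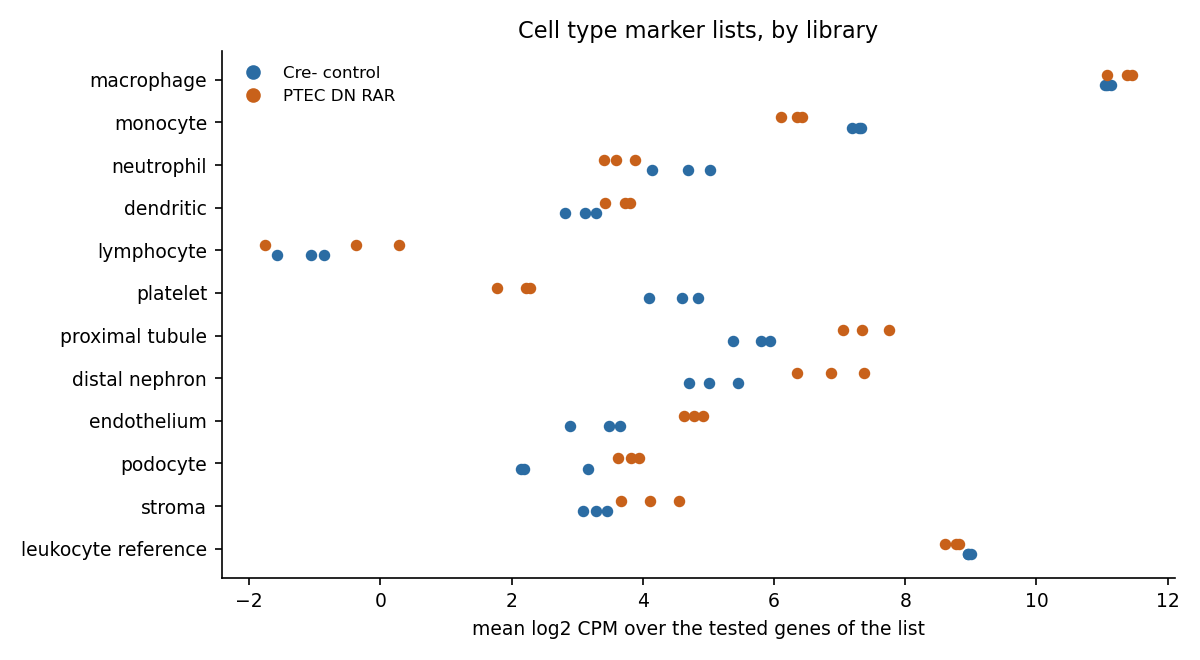
Mean log2 CPM (horizontal axis) of the tested genes of each cell type marker list, and of the leukocyte reference genes used for an alternative scaling, with 1 point per library (blue, Cre- control; orange, PTEC DN RAR). Kidney cell lists sit higher in all 3 PTEC DN RAR libraries, by 1.68 for proximal tubule and 1.43 for endothelium, and monocyte, neutrophil and platelet lists sit lower.

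Of the 10 efferocytosis genes, 4 were lower (Mertk, Stab1, Lrp1 and Elmo1) and 2 higher (Axl and Mfge8) in PTEC DN RAR libraries when tested with the quasi-likelihood method of edgeR (adjusted p below 0.05). Over all genes tested, 17.1% were called lower and 23.6% higher, or 40.6% in either direction. For 7 of the 10 genes values were separate between genotypes, against 53.4% of all genes. For 4 of these the PTEC DN RAR values lay below the controls (24.2% of all genes) and for 3 above (29.2%). With a background this broad, 6 calls in 10 genes do not mark the list as a whole, and its median log2 fold change of 0.15 was near the 0.04 of all genes. Within the list, the TAM receptors Axl and Mertk moved in opposite directions. This count depends on how libraries were scaled. When they were scaled on 21 leukocyte reference genes, which were themselves lower by 0.24 on the log2 scale under TMM, 1 member was called lower (Lrp1) and 5 higher (Axl, Tyro3, Pros1, Mfge8 and Dock1). The median of all genes then moved from 0.04 to 0.27, and 4.42% of all genes were called lower and 34.1% higher. The sign of each of the 10 log2 fold changes stayed the same. Relative to the median of all genes, Mertk stood at -0.38 and Axl at 0.66 with TMM, and since another scaling shifts every gene and the median together, such relative values are nearly equal under both by construction and are no sign of stability.

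**Figure D2:**
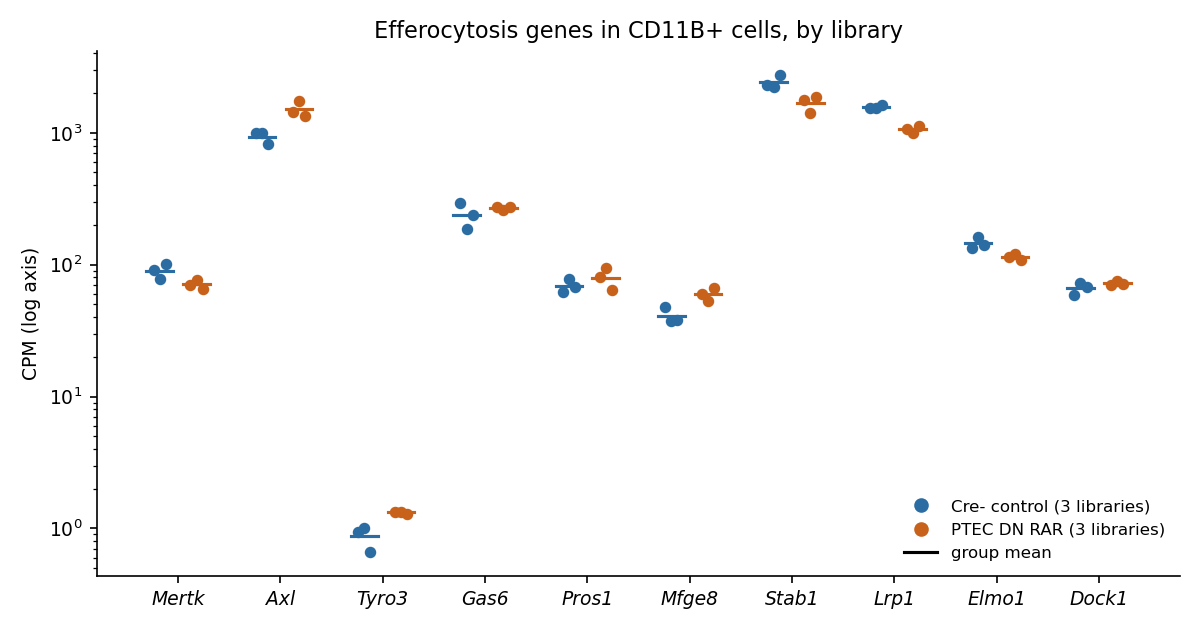
CPM (vertical log axis) of the 10 efferocytosis genes in each library, with blue points for Cre- control, orange points for PTEC DN RAR and bars at the group means. Axl points of PTEC DN RAR libraries lie at 1340 to 1754 CPM, all above the Cre- controls, and Stab1 and Lrp1 points lie below theirs.

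Axl, the TAM receptor that is induced in inflamed macrophages and is also made by endothelial and stromal cells, showed the largest rise of the list. It lies on chromosome 7 of GRCm38 from 25757273 to 25788705 (ENSMUSG00000002602). It measured 990.0, 993 and 826 CPM in Cre- control libraries 1 to 3 and 1445, 1754 and 1340 CPM in PTEC DN RAR libraries 1 to 3. The groups did not overlap, and the lowest PTEC DN RAR library stood well above the highest control. The means were 936 ± 95.4 CPM and 1513 ± 215 CPM (SD, n = 3 each), and the log2 fold change was 0.69 (adjusted p = 0.00442 by edgeR, standard error 0.13). The 95% interval of the fold ran from 1.31 to 1.99. Axl was called higher under all 14 alternative settings, with log2 fold changes from 0.56 to 0.93.

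Mertk, the TAM receptor characteristic of resident macrophages and of steady uptake, moved the other way. It lies on chromosome 2 from 128698956 to 128802894 (ENSMUSG00000014361) and measured 90.4, 77.7 and 102 CPM in Cre- controls against 70.3, 76.6 and 65.5 CPM in PTEC DN RAR libraries. The groups did not overlap, but Cre- control 2 and PTEC DN RAR 2 nearly met. The means of 89.9 ± 11.9 and 70.8 ± 5.58 CPM (SD, n = 3 each) gave a log2 fold change of -0.34 (adjusted p = 0.0385 by edgeR, standard error 0.11). This call was close to the threshold. It was lost with leukocyte scaling (-0.11, adjusted p = 0.510) and when Cre- control 1 (adjusted p = 0.0647), Cre- control 3 (0.0988), PTEC DN RAR 1 (0.0933) or PTEC DN RAR 3 (0.0750) was left out, while the direction stayed the same. Beside general macrophage transcripts (the mean log2 CPM of Adgre1, Csf1r and Cd68 in the same library), Mertk stood at -4.18, -4.28 and -3.89 in Cre- controls against -4.44, -4.24 and -4.30 in PTEC DN RAR libraries, which overlapped (difference -0.21, exact permutation test, two-sided, p = 0.2), and without Cre- control 3 the difference was -0.10. Of the 3 reference genes, Cd68 was itself called lower (log2 fold change -0.44, adjusted p = 0.0116 by edgeR).

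The balance of these receptors does not depend on how libraries are scaled, because it is taken within a library. Mertk minus Axl in log2 CPM was -3.45, -3.67 and -3.02 in Cre- controls against -4.36, -4.52 and -4.35 in PTEC DN RAR libraries. The groups did not overlap, though the controls spread widely, and the difference was -1.03 (exact permutation test, two-sided, p = 0.1, the smallest p possible here). As a ratio of CPM, Axl was 11.0, 12.8 and 8.14 times Mertk in Cre- controls against 20.6, 22.9 and 20.5 times Mertk in PTEC DN RAR libraries, means of 10.6 ± 2.33 and 21.3 ± 1.38 (SD, n = 3 each). Per kilobase of exon, Mertk made up 9.57%, 8.33% and 12.5% of the summed TAM receptor level in Cre- controls against 5.34%, 4.82% and 5.36% in PTEC DN RAR libraries. Leaving out each library in turn kept Mertk minus Axl between -1.17 and -0.85. Since Axl is also made outside macrophages, endothelial and stromal markers, higher by 1.43 and 0.84 on the log2 scale, stand beside this ratio, and their part in it was not tested.

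Tyro3, the TAM receptor best known from the nervous system and from dendritic cells, was barely detected. It had 37, 30 and 21 reads in Cre- controls and 56, 57 and 61 reads in PTEC DN RAR libraries, or 0.948, 1.01 and 0.665 CPM against 1.34, 1.34 and 1.29 CPM. The PTEC DN RAR values lay above every control, but the log2 fold change of 0.60 (standard error 0.27) did not pass (adjusted p = 0.105 by edgeR), and its 95% interval from -0.01 to 1.21 is the widest of the list. Without Cre- control 3 it was 0.39, and with leukocyte scaling it passed (0.84, adjusted p = 0.0436). Tyro3 gave at most 0.0754% of the summed TAM receptor level per kilobase in any library.

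**Figure D3:**
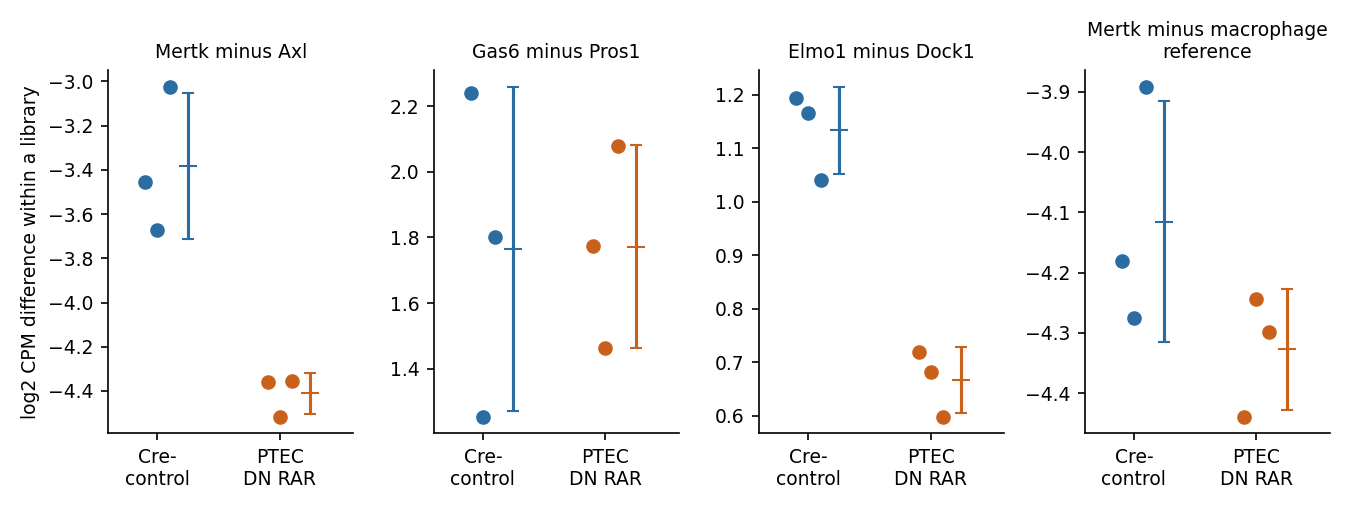
Differences in log2 CPM between genes of the same library (vertical axes, a separate range in each panel, not starting at 0), with 1 point per library and the mean ± SD (n = 3) beside them. Mertk minus Axl and Elmo1 minus Dock1 lie lower in all 3 PTEC DN RAR libraries, whereas Gas6 minus Pros1 and Mertk minus the macrophage reference overlap between genotypes.

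Of the bridging molecules, Mfge8 was higher in PTEC DN RAR libraries and the TAM ligands Gas6 and Pros1 were not called. Mfge8 (ENSMUSG00000030605, chromosome 7 from 79133768 to 79149060) measured 47.5, 37.3 and 37.8 CPM in Cre- controls and 60.4, 52.7 and 66.4 CPM in PTEC DN RAR libraries. Every PTEC DN RAR value was above every control, with Cre- control 1 the nearest. The log2 fold change was 0.55 (adjusted p = 0.00924 by edgeR, standard error 0.13) and the 95% interval of the fold 1.20 to 1.78. Leaving out Cre- control 3 gave 0.45 with an adjusted p of 0.0572. Beside general macrophage transcripts, of which Cd68 was itself lower, Mfge8 was higher by 0.68 without overlap. Kidney cell markers were higher too, from 0.84 for stroma to 1.81 for distal nephron, and their part in the Mfge8 value was not tested.

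Gas6, which binds all TAM receptors and is the main ligand of AXL, was the most abundant bridging molecule of the list. It measured 295, 186 and 238 CPM in Cre- controls and 274, 262 and 274 CPM in PTEC DN RAR libraries (ENSMUSG00000031451, chromosome 8 from 13465374 to 13494490). The control values spread widely around those of PTEC DN RAR libraries, which lay close together. The log2 fold change was 0.17 (adjusted p = 0.392 by edgeR, standard error 0.15), and the 95% interval of the fold, from 0.888 to 1.43, does not show that the genotypes were alike. Cre- control 2 set the direction, since without it the log2 fold change was -0.024 (adjusted p = 0.889 by edgeR), and without Cre- control 1 it was 0.34.

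Pros1, which encodes protein S, a vitamin K-dependent plasma protein that binds TYRO3 and MERTK, measured 62.4, 77.8 and 68.2 CPM in Cre- controls and 80.1, 94.9 and 64.7 CPM in PTEC DN RAR libraries (ENSMUSG00000022912, chromosome 16 from 62854307 to 62929346). These values overlapped. Its log2 fold change was 0.20 (adjusted p = 0.292 by edgeR, standard error 0.14), with a 95% interval of the fold from 0.916 to 1.44, and it passed with leukocyte scaling (0.43, adjusted p = 0.0225). The value rested largely on PTEC DN RAR 2, since without it the log2 fold change was 0.057, and it was 0.12 without Cre- control 1. Gas6 minus Pros1 was 2.24, 1.25 and 1.80 in Cre- controls against 1.78, 1.46 and 2.08 in PTEC DN RAR libraries, a difference of 0.0071 that lay well inside the spread (exact permutation test, two-sided, p = 1.0). Its sign turned with single libraries, from -0.25 without Cre- control 2 to 0.24 without Cre- control 1. Whether the receptor balance differed more than the ligand balance was not tested.

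Stab1 and Lrp1, the most abundant receptors of the list beside Axl, were both lower. Stab1 (ENSMUSG00000042286, chromosome 14 from 31139013 to 31168641) encodes stabilin-1, a scavenger receptor of tissue macrophages and sinusoidal endothelium, and measured 2304, 2220 and 2761 CPM in Cre- controls against 1764, 1404 and 1854 CPM in PTEC DN RAR libraries. No PTEC DN RAR library reached the lowest control. The log2 fold change was -0.54 (adjusted p = 0.0172 by edgeR, standard error 0.14), with a 95% interval of the fold from 0.550 to 0.864. The call was lost without PTEC DN RAR 2 (-0.43, adjusted p = 0.0560) and with leukocyte scaling (-0.29, adjusted p = 0.165). Beside general macrophage transcripts Stab1 differed by -0.41, with values that overlapped. Endothelial markers were higher by 1.43, and their part in the Stab1 value was not tested.

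Lrp1 (ENSMUSG00000040249, chromosome 10 from 127538161 to 127621148) encodes a large endocytic receptor of the LDL receptor family. It measured 1552, 1542 and 1630 CPM in Cre- controls and 1063, 1004 and 1121 CPM in PTEC DN RAR libraries, means of 1574 ± 48.0 and 1063 ± 58.4 CPM (SD, n = 3 each). Both groups were tight and lay far apart. The log2 fold change of -0.57 (adjusted p = 0.00266 by edgeR, standard error 0.10) was the largest fall of the list, with a 95% interval of the fold from 0.580 to 0.786. It was called lower under all 14 alternative settings, including leukocyte scaling (-0.32, adjusted p = 0.0471), and beside general macrophage transcripts it was lower by 0.44 without overlap. Lrp1 is also made by fibroblasts and other kidney cells. Stromal markers were higher by 0.84, and their part in the Lrp1 value was not tested.

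Of the ELMO1-DOCK1 pair, Elmo1 was called lower and Dock1 was not called. Elmo1 (ENSMUSG00000041112, chromosome 13 from 20090596 to 20608353) measured 134, 163 and 140.1 CPM in Cre- controls and 115, 121 and 109 CPM in PTEC DN RAR libraries, without overlap. The log2 fold change was -0.35 (adjusted p = 0.0218 by edgeR, standard error 0.10), with a 95% interval of the fold from 0.675 to 0.918. The call was lost without PTEC DN RAR 1 (-0.35, adjusted p = 0.0596) and with leukocyte scaling (-0.11, adjusted p = 0.438), and beside general macrophage transcripts Elmo1 differed by -0.21 with overlapping values. Dock1 (ENSMUSG00000058325, chromosome 7 from 134670654 to 135173639) is a widely expressed guanine nucleotide exchange factor and measured 58.6, 72.6 and 68.1 CPM against 69.6, 75.5 and 71.7 CPM, which overlapped. Its log2 fold change was 0.12 (adjusted p = 0.347 by edgeR, standard error 0.10, 95% interval of the fold 0.933 to 1.27), or 0.033 without Cre- control 1. With leukocyte scaling Dock1 was called higher (0.36, adjusted p = 0.0290). Elmo1 minus Dock1, a difference looked at after the values were seen and given without a test, was 1.19, 1.17 and 1.04 in Cre- controls against 0.72, 0.68 and 0.60 in PTEC DN RAR libraries.

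**Figure D4:**
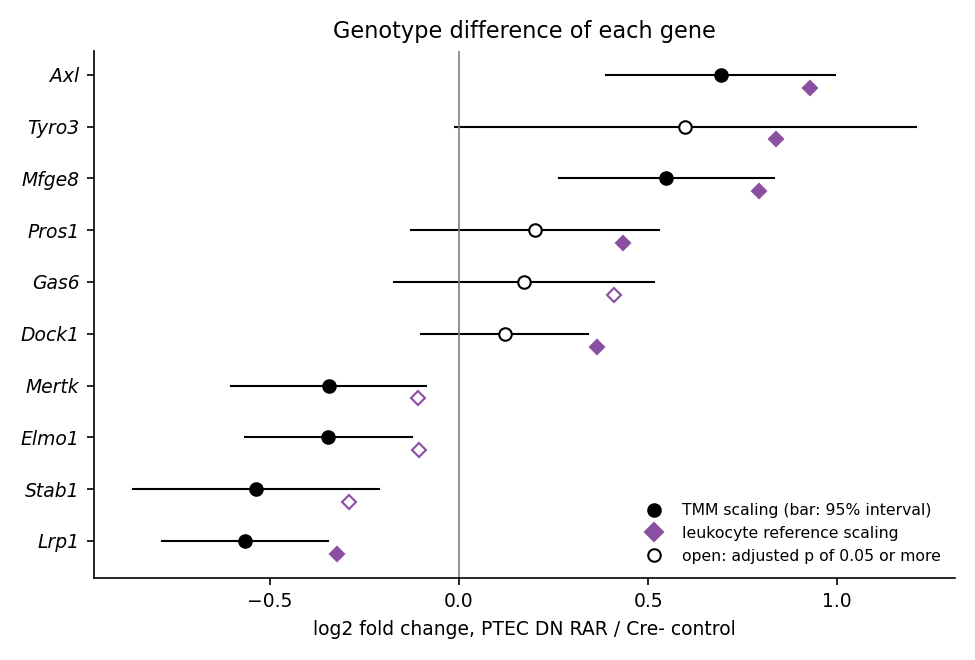
Log2 fold change of PTEC DN RAR over Cre- control libraries (horizontal axis) of each efferocytosis gene, with black circles and 95% intervals for TMM scaling and purple diamonds for leukocyte reference scaling. Filled symbols have an adjusted p under 0.05. The leukocyte scaling shifts all genes to the right by a similar amount, Axl from 0.69 to 0.93 and Mertk from -0.34 to -0.11.

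The order of the genes by level was compared per kilobase of exon, in CPM per kilobase. Exon length was that of all annotated exons of a gene, with shared bases counted once. The order therefore depends on the annotation as well as on the level. In Cre- controls Stab1 stood highest (236 ± 28.3), followed by Axl (186 ± 18.9), Gas6 (94.0 ± 21.4), Lrp1 (88.9 ± 2.71), Mertk (20.7 ± 2.75), Pros1 (17.0 ± 1.91), Elmo1 (11.6 ± 1.21), Mfge8 (8.71 ± 1.23), Dock1 (7.12 ± 0.765) and Tyro3 (0.141 ± 0.0294; SD, n = 3 each). Neighbouring values overlapped for Gas6 and Lrp1 and for Mertk and Pros1, and for no other neighbours. In PTEC DN RAR libraries Axl passed Stab1 to stand highest, at 301 ± 42.8 against 163 ± 23.1 CPM per kilobase. Mfge8 (12.7 ± 1.46) passed Elmo1 (9.12 ± 0.498), and Pros1 (19.5 ± 3.69) and Mertk (16.3 ± 1.29) changed places with overlapping values. The remaining order was the same. The counting is not stated to use strand, and exons of 3 genes overlap a gene on the opposite strand over a few of their bases, Gas6 with Tmem255b (1.33%), Stab1 with Nt5dc2 (1.09%) and Elmo1 with Gm32036 (3.20%).

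Among 8992 genes with a mean of at least 10 CPM, likeness to a member was measured as the root mean square difference of centred log2 CPM over the 6 libraries. The genes nearest to Axl were Eng (0.034), which encodes the endothelial and macrophage TGF-beta coreceptor endoglin, Amz1 (0.036) and Fam214a (0.052). Eng measured 75.4, 74.5 and 62.5 CPM in Cre- controls and 105, 125 and 99.0 CPM in PTEC DN RAR libraries, and thus was lowest in control 3 and highest in PTEC DN RAR 2, as Axl was. Nearest to Mertk were Mfhas1 (0.039), Gnpda1 (0.051) and Sgk1 (0.061). Nearest to Gas6 were Stk19 (0.021), Prdx5 (0.029) and Trabd (0.031), each of them low in Cre- control 2. Nearest to Stab1 were Vps37b (0.067), Plgrkt (0.068) and Prorsd1 (0.071), and among members Stab1 and Lrp1 were the closest pair (0.11). With 6 libraries in 2 genotypes such likeness is a description of these libraries.

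Of 92 other genes of the pathway, 87 passed the filter on low counts. By edgeR 25 of them were lower, 10 higher and 52 not called, against 17.1% lower and 23.6% higher among all genes. Their median log2 fold change was -0.12, beside 0.04 for all genes. With leukocyte scaling 12 were lower and 23 higher, against 4.42% lower and 34.1% higher among all genes under that scaling. Megf10, Ptx3, Tub, Adgrb1 and Tulp1 did not pass the filter, with at most 0.906 CPM in any library.

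**Figure D5:**
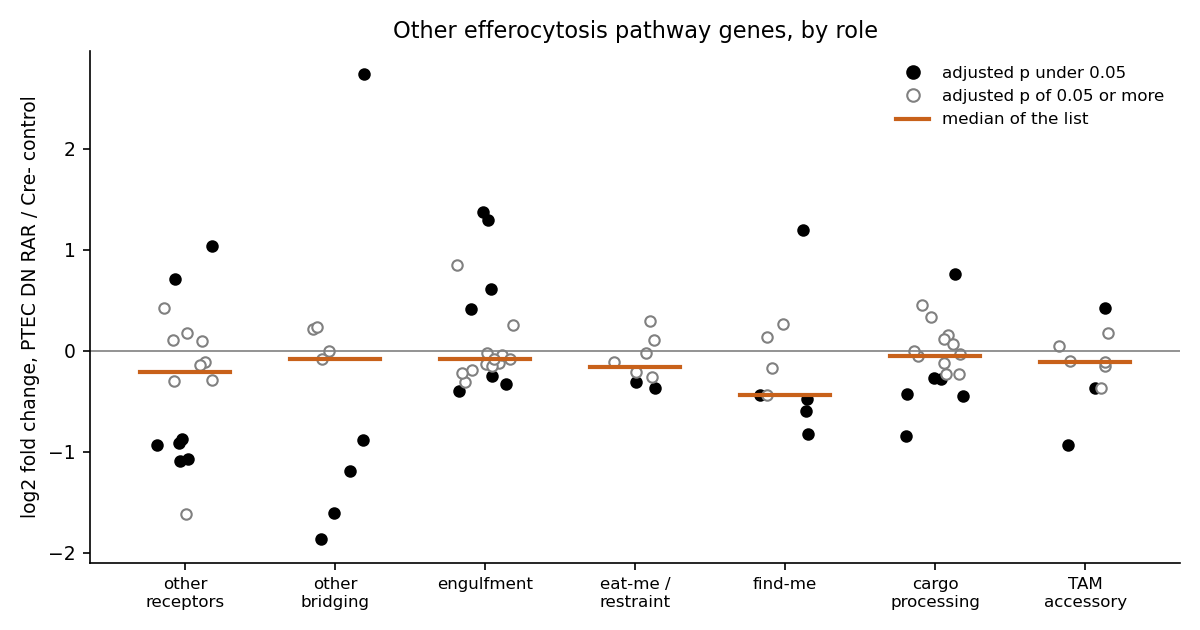
Log2 fold change of PTEC DN RAR over Cre- control libraries (vertical axis) of 87 other efferocytosis genes, 1 point per gene, grouped by role. Filled points have an adjusted p under 0.05, horizontal bars are list medians, and the lowest called point is Thbs1 at -1.87.

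Among other receptors for apoptotic cells, 5 of 16 tested genes were lower and 2 higher, against 17.1% and 23.6% of all genes. Cd300lb, a myeloid immunoglobulin-like receptor, measured 128, 94.0 and 126 CPM in Cre- controls and 57.1, 45.3 and 61.0 CPM in PTEC DN RAR libraries, so that the log2 fold change was -1.09 (adjusted p = 0.00105 by edgeR). The scavenger receptor gene Scarf1 fell by 1.07 on the log2 scale, from 18.4 ± 3.64 to 8.75 ± 2.47 CPM (SD, n = 3 each, adjusted p = 0.00591 by edgeR). The other genes called lower, named after their values were seen, were Cd36 (-0.93), Trem2 (-0.87) and Cd300lf (-0.92). Stab2, the paralog of Stab1 typical of sinusoidal endothelium, rose by 1.04 on the log2 scale, from 0.972 ± 0.145 to 2.01 ± 0.422 CPM, and Itgb3 by 0.72, both low in level. Havcr1, which encodes Kim1, the phosphatidylserine receptor of injured PTECs, measured 6.25, 9.73 and 13.8 CPM in Cre- controls and 6.52, 10.5 and 7.35 CPM in PTEC DN RAR libraries. These values overlapped (log2 fold change -0.29, standard error 0.29, adjusted p = 0.457 by edgeR). Proximal tubule markers were higher by 1.68, and their part in the Havcr1 value was not tested. The paper reports more Kim1 mRNA in whole PTEC DN RAR kidneys after IRI-AKI and in cultured PTECs. Counts from CD11B-bound cells do not measure Kim1 in PTECs. Timd4, the receptor of long-lived resident macrophages, had a log2 fold change of -1.62 with a standard error of 0.67 (adjusted p = 0.0845 by edgeR); its control values of 2.33, 12.2 and 4.78 CPM were far from each other, and it too was named after its values were seen.

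Among other bridging molecules, 4 of 9 tested genes were lower and 1 higher, against 17.1% and 23.6% of all genes. Thbs1, which encodes thrombospondin-1, a bridge to CD36 and alpha v integrins that platelets also carry, measured 1714, 1108 and 1996 CPM in Cre- controls and 436, 350.4 and 533 CPM in PTEC DN RAR libraries. The groups were far apart, with a log2 fold change of -1.87 (adjusted p = 0.000691 by edgeR, standard error 0.23). Platelet markers were lower by 2.42, and their part in this was not tested. Edil3, an integrin ligand related to Mfge8, fell by 1.61 on the log2 scale at a low level (2.03 ± 0.606 to 0.664 ± 0.214 CPM). The other genes called lower, named after their values were seen, were Anxa1 (-1.19) and Lgals3 (-0.88). The complement genes C1qa, C1qb and C1qc, named here as the most abundant bridging genes after their values were seen, were not called, with log2 fold changes of 0.21, -0.0060 and 0.23. The gene called higher was Apoh, a plasma protein gene at under 1 CPM in every library, likewise named after its values were seen.

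Of the engulfment genes, 3 of 19 were lower and 4 higher, near the 17.1% and 23.6% of all genes. Cdc42, a GTPase of the phagocytic cup, measured 943, 1038 and 992 CPM in Cre- controls and 797, 739.8 and 724 CPM in PTEC DN RAR libraries (log2 fold change -0.40, adjusted p = 0.0107 by edgeR). The exchange factor gene Vav3 fell by 0.33 on the log2 scale. Rac1, the target of ELMO1-DOCK1 and named after its values were seen, was called lower at -0.25 with an adjusted p of 0.0479. The adaptor gene Bcar1 rose by 1.37 on the log2 scale, from 8.32 ± 3.20 to 21.6 ± 4.44 CPM (SD, n = 3 each), and Elmo3, the ELMO family member typical of epithelium, by 1.29, from 4.72 ± 2.04 to 11.7 ± 2.42 CPM. Dock2, the leukocyte relative of Dock1 and also named after its values were seen, was not called (-0.19, adjusted p = 0.184 by edgeR).

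Genes for signals that mark or protect cells at the phagocyte surface were called lower in 2 of 8 cases and higher in 0 of 8 by edgeR. Over all genes tested, 17.1% were lower and 23.6% higher, and counts in 8 genes do not set this list apart. None of the 8 was higher at an unadjusted p under 0.05 (0), by DESeq2 (0) or by limma-voom (0). Calr, which encodes calreticulin, an eat-me signal bound by LRP1, fell by 0.37 on the log2 scale. Sirpa, the receptor for the don't-eat-me signal CD47, fell by 0.31. Among genes for find-me signals, their release and their receptors, 4 of 9 were lower and 1 higher, against 17.1% and 23.6% of all genes. Those called lower encode receptors or a release channel, and the 1 called higher encodes a ligand. S1pr1, the sphingosine 1-phosphate receptor, measured 49.7, 38.7 and 59.2 CPM in Cre- controls against 28.0, 26.2 and 29.0 CPM in PTEC DN RAR libraries (log2 fold change -0.83, adjusted p = 0.00312 by edgeR). The nucleotide receptor gene P2ry12 fell by 0.60 on the log2 scale. Platelet markers were lower by 2.42, and their part in the P2ry12 value was not tested. Cx3cl1, the ligand of CX3CR1 that epithelium and endothelium release, rose by 1.20.

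For the handling of engulfed cargo, 5 of 17 genes were lower and 1 higher, against 17.1% and 23.6% of all genes. Abca1, which exports the cholesterol of digested cells, measured 416, 441 and 609 CPM in Cre- controls and 284, 258 and 274 CPM in PTEC DN RAR libraries, without overlap (log2 fold change -0.84, standard error 0.14, adjusted p = 0.00273 by edgeR). Lipa, the lysosomal acid lipase gene, fell by 0.45 on the log2 scale, and Nr1h3, which encodes LXR alpha, a nuclear receptor known to induce Abca1 and Mertk, rose by 0.76, from 11.9 ± 2.06 to 20.1 ± 4.99 CPM (SD, n = 3 each). Among genes that serve the TAM receptors, 2 of 9 were lower and 1 higher, against the same shares of all genes. Socs3, a feedback inhibitor of cytokine signaling induced downstream of TAM receptors, fell by 0.93 on the log2 scale (837, 696 and 604 CPM in Cre- controls against 398, 313 and 412 CPM). The sheddase gene Adam10 fell by 0.37, with overlapping values. Ggcx, the vitamin K-dependent carboxylase that activates GAS6 and protein S, rose by 0.43, from 11.4 ± 0.706 to 15.4 ± 0.265 CPM.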

How the data were processed

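The authors deposited raw read counts per Ensembl gene for 6 libraries. The submitters' processing notes name STAR 2.5.0a, HTSeq 0.6.1, edgeR, limma and GRCm38, and the annotation release is not given in the sources used here. Lines for reads without a single gene were left out of library sizes. Of all counted lines per library, 42.9% to 47.8% aligned to more than 1 place, 2.39% to 3.97% fell in no feature and 0.457% to 0.527% were ambiguous. Of 46612 gene lines, 9 repeated lines were collapsed. Exon lengths and coordinates come from GENCODE M21 on GRCm38.

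After filterByExpr and TMM scaling, genotypes were compared by the quasi-likelihood test (glmQLFit, then glmQLFTest) in edgeR 4.0.16, run under R 4.3.3. P-values were adjusted by Benjamini-Hochberg over 15440 genes at a threshold of 0.05. Differences within a library and marker lists used log2 CPM with a prior count of 2 and exact permutation tests (scipy 1.17.1). At these depths 3 reads correspond to 0.0636 to 0.101 CPM. Alternatives were DESeq2 1.42.0, limma-voom 3.58.1, DESeq2 size factors, library size, leukocyte reference genes (21 of 22 passed the filter), no filter, at least 10 counts in every library, the replicate number as a block, a prior count of 0.25 and each library left out in turn. Libraries of 1 genotype differed beyond sampling noise (chi-square per degree of freedom at least 27.1).

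The members and gene lists were chosen with earlier results of these data known. Besides members, genes were named as the 2 largest falls and rises called in each pathway list at 1 CPM or more, Havcr1, and the 3 genes nearest to Mertk, Axl, Gas6 and Stab1. Cd36, Trem2, Cd300lf, Timd4, Anxa1, Lgals3, C1qa, C1qb, C1qc, Apoh, Rac1 and Dock2 fall outside this rule and were named after their values were seen. Protein sequences were not analysed here.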

Additional observations from a re-analysis of the deposited data

How the results depend on the processing

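Of 140 values for the 10 genes under 14 alternatives, 125 kept their direction and their side of the threshold, 11 lost the call, 3 gained it and 1 changed sign (Gas6 without Cre- control 2, -0.024, in a range of -0.024 to 0.34 over the libraries left out). Scaling on leukocyte reference genes had the broadest effect. It called 682 genes lower and 5268 higher over the whole table, against 2636 and 3640 with TMM, with 1 member lower and 5 higher, and 12 other pathway genes lower and 23 higher. The construction of this scaling moves all genes together, so differences within a library do not change with it. Leaving out each library in turn gave 2 to 4 members lower and 1 to 2 higher, 17 to 26 other pathway genes lower and 7 to 12 higher, and 1874 to 2824 genes lower and 2433 to 3699 higher over the table. The fewest members were called lower without PTEC DN RAR 1 and higher without Cre- control 3. Gas6 minus Pros1 then ranged from -0.25 to 0.24 and Mertk minus the macrophage reference from -0.29 to -0.10. With the replicate number as a block, 3 members were lower and 2 higher, the call of Mertk being lost (adjusted p = 0.0706 by edgeR). Libraries of the same number share only that number, since their deviations from the group means correlated at -0.015, 0.21 and 0.029, and Cre- control 1 and 3 each correlated best with another number. Depth limits Tyro3 most, at 21 to 61 reads.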
